A study of Danio rerio with 6 samples.

Results

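Expression of 3 thyroid hormone axis genes, tshba, thrb and slc5a5, was examined in cultured zebrafish testis, each through 1 Ensembl transcript of the 46260 transcripts counted in every library. The transcripts were tshba ENSDART00000050000.2 (gene ENSDARG00000033726), thrb ENSDART00000166313.1 (gene ENSDARG00000021163) and slc5a5 ENSDART00000159760.1 (gene ENSDARG00000005392). They were chosen by gene symbol from the study's list of transcripts called different between Insl3-treated and control testes in these same 6 libraries, so the difference between the conditions is what selected them. It is therefore given as a description, and no test of it is offered as support.

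The libraries came from the testis tissue of adult wild-type males. Testes were kept in primary culture for 2 days without added hormone, and then for 2 more days either under basal conditions (3 testes) or with zebrafish Insl3 peptide at 100 ng/mL (3 testes). Insl3, insulin-like 3, is a relaxin-family peptide of the Leydig cells, and the experiment asked which testicular transcripts respond to it. The tissue is whole testis, so fewer cells of a type and less RNA per cell cannot be told apart. Values after ± on CPM means are the SD between the 3 testes of a condition, and other errors are named where given. Basal and Insl3 libraries that carry the same number are also compared as pairs, although no source used here says that they came from 1 male.

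Thyroid-stimulating hormone is a pituitary glycoprotein hormone made of a common alpha subunit and a specific beta subunit, which tshba encodes. In the thyroid follicle its receptor drives iodide uptake through the sodium/iodide symporter, the product of slc5a5, and the synthesis of thyroid hormone. Thyroid hormone then acts in target tissues through nuclear receptors that bind DNA together with retinoid X receptors, and thrb encodes the beta receptor. In mammals the Sertoli cells of the young testis are a known target of thyroid hormone.

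Total counts per library ranged from 20967304 to 28939006, and values below are CPM, reads scaled to a fixed library total, after TMM scaling, a correction for differences in library composition. Levels were low for all 3 transcripts. Their mean level over the 6 libraries lay above that of 20.2% of the 36363 tested transcripts for tshba, 28.7% for thrb and 16.6% for slc5a5. Each of the 3 transcripts would have passed the filter on low counts from its basal libraries alone. No transcript lengths were used, so the levels of the 3 genes are not compared with each other.

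All 3 transcripts had higher mean levels with Insl3, by 2.35-fold for tshba, 1.69-fold for thrb and 3.07-fold for slc5a5 in the fitted model. The spread of the values differed between the genes, over only 3 libraries per condition. The thrb values were tight within the Insl3 libraries and the conditions were separate, whereas for tshba and slc5a5 the highest value stood in 1 Insl3-treated testis and the conditions overlapped. This contrast leaves the replicate numbers aside. Within same-numbered pairs 1 to 3 the ratios of Insl3 over basal were 1.41, 2.21 and 2.99 for tshba. They were 2.10, 3.10 and 3.36 for slc5a5, and 1.69, 2.10 and 1.43 for thrb.

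The ligand subunit tshba was counted 22, 26 and 22 times in basal replicates 1 to 3, and 25, 40 and 70 times in Insl3 replicates 1 to 3. After scaling, the basal levels were 0.679, 0.871 and 1.17 CPM. The Insl3 levels were 0.956, 1.93 and 3.51 CPM. The conditions overlapped, because Insl3 replicate 1 lay below basal replicate 3, and Insl3 replicate 3 was well above all other libraries. The means were 0.908 ± 0.249 CPM under basal conditions and 2.13 ± 1.29 CPM with Insl3 (SD, n = 3 each). The fitted log2 fold change was 1.23, with a standard error of 0.54. Without Insl3 replicate 3 the log2 fold change was 0.65, and without both libraries numbered 3, an alternative chosen after seeing the data, it was 0.88.

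The symporter slc5a5, which carries iodide into the cell together with sodium, had the fewest reads. It was counted 13, 13 and 19 times in basal replicates 1 to 3, and 22, 28 and 68 in Insl3 replicates 1 to 3. These correspond to 0.401, 0.436 and 1.01 CPM under basal conditions. With Insl3 they were 0.841, 1.35 and 3.41 CPM. Basal replicate 3 was again above Insl3 replicate 1, and Insl3 replicate 3 was again the highest. The means were 0.617 ± 0.344 CPM under basal conditions and 1.87 ± 1.36 CPM with Insl3 (SD, n = 3 each), a log2 fold change of 1.62 (standard error 0.66). This fold change was 0.83 without Insl3 replicate 3 and 1.37 without both libraries numbered 3.

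The receptor thrb was counted 52, 41 and 42 times in basal replicates 1 to 3, and 71, 60 and 64 times in Insl3 replicates 1 to 3. The basal levels were 1.61, 1.37 and 2.24 CPM. The Insl3 levels were 2.71, 2.89 and 3.21 CPM. Every Insl3-treated testis was above every basal testis. The means were 1.74 ± 0.45 CPM and 2.94 ± 0.25 CPM (SD, n = 3 each), and the log2 fold change of 0.76 (standard error 0.33) was the smallest of the 3 genes. It ranged from 0.62 to 0.98 with each library left out in turn.

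**Figure D1:**
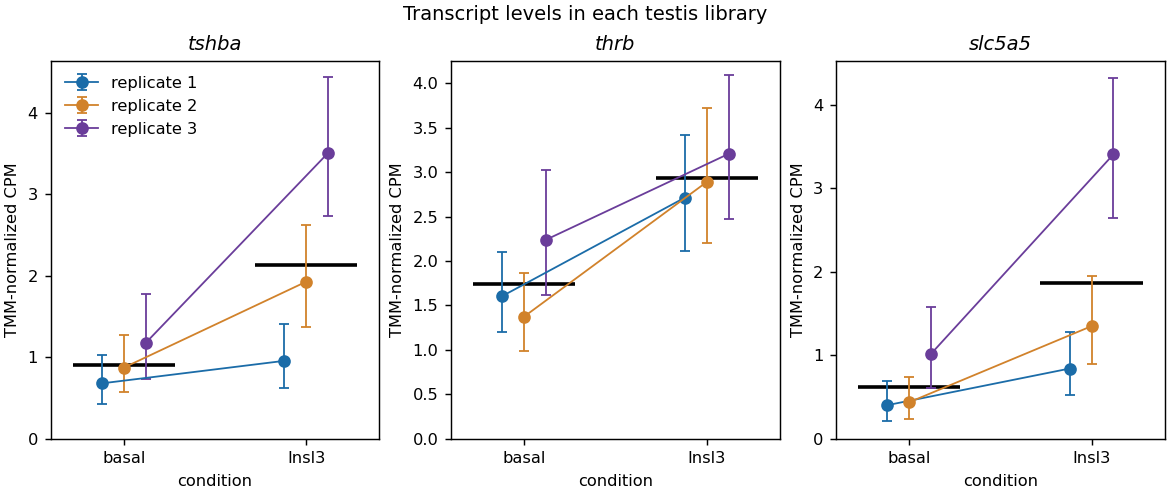
TMM-normalized CPM (vertical axes, starting at 0) of tshba, thrb and slc5a5 in the basal and Insl3 libraries, with each replicate number in 1 color, a thin line joining same-numbered libraries, 95% counting intervals as bars and the mean of each condition as a thick black line. Insl3 replicate 3 reaches 3.51 CPM for tshba and 3.41 CPM for slc5a5, while the 3 Insl3 values of thrb lie between 2.71 and 3.21 CPM, all above the basal ones.

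The spread between testes was set beside the spread that read sampling alone gives. With Insl3 the coefficient of variation between testes was 60.5% for tshba and 72.9% for slc5a5, against 14.9% and 15.9% from counting alone at their mean counts. For thrb it was 8.52% with Insl3, below the 12.4% from counting alone, so this tightness is not read as a property of the gene. Under basal conditions the observed and counting values were 27.5% and 20.7% for tshba, 55.8% and 25.8% for slc5a5, and 25.8% and 14.9% for thrb. The biological coefficient of variation estimated by edgeR within conditions was 0.47 for tshba, 0.54 for slc5a5 and 0.32 for thrb, and its median over the 36363 tested transcripts was 0.34. The values of tshba and slc5a5 exceeded those of 80.4% and 88.5% of tested transcripts, and that of thrb exceeded 39.8%. The median and these shares are over transcripts of all levels. No comparison with transcripts of like level was made.

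Libraries numbered 3 were the highest of their condition for all 3 genes. For slc5a5 the libraries numbered 3 lay 0.76 (basal) and 1.07 (Insl3) above their condition means on the log2 CPM scale, and those numbered 1 lay below, at -0.43 and -0.85. The corresponding deviations of tshba were 0.37 and 0.88 for replicate 3, and -0.35 and -0.92 for replicate 1. For thrb replicate 3 was higher by 0.38 and 0.13. Ordered from high to low, the 6 libraries had the same order for tshba and slc5a5. It was Insl3 replicates 3 and 2, basal replicate 3, Insl3 replicate 1, then basal replicates 2 and 1. Part of this order rests on the scaling, which both genes share. Basal replicates 1 and 2 had 13 counts each for slc5a5, and basal replicates 1 and 3 had 22 each for tshba. For both genes the 95% counting intervals of the 3 basal libraries and Insl3 replicate 1 overlapped. For thrb the intervals overlapped within each condition. Over the 6 libraries log2 CPM correlated with r = 0.97 between tshba and slc5a5, 0.88 between slc5a5 and thrb, and 0.79 between tshba and thrb. These are descriptions over 6 libraries that share their depth, their replicate numbers and the contrast that chose the genes.

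Within same-numbered pairs, each of the 3 genes was higher with Insl3 in all 3 pairs. This held for 3 of 3 genes, beside 20.5% of all tested transcripts. The ratios of tshba were 1.41 (95% exact counting interval 0.762 to 2.62), 2.21 (1.32 to 3.78) and 2.99 (1.83 to 5.07) in pairs 1, 2 and 3. Only in pair 1 did the interval of tshba include 1. For slc5a5 they were 2.10 (1.01 to 4.53), 3.10 (1.55 to 6.51) and 3.36 (2.00 to 5.92). The lower bound of slc5a5 in pair 1 was close to 1. For thrb they were 1.69 (1.17 to 2.47), 2.10 (1.39 to 3.21) and 1.43 (0.955 to 2.17). Here it was pair 3 whose interval included 1. The mean difference in log2 CPM over the pairs was 1.01 ± 0.54 for tshba, 1.36 ± 0.38 for slc5a5 and 0.75 ± 0.26 for thrb (SD, n = 3 pairs). The counting intervals leave out the spread between testes. They also take reads to be independent, although reads amplified by PCR are not independent molecules.

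**Figure D2:**
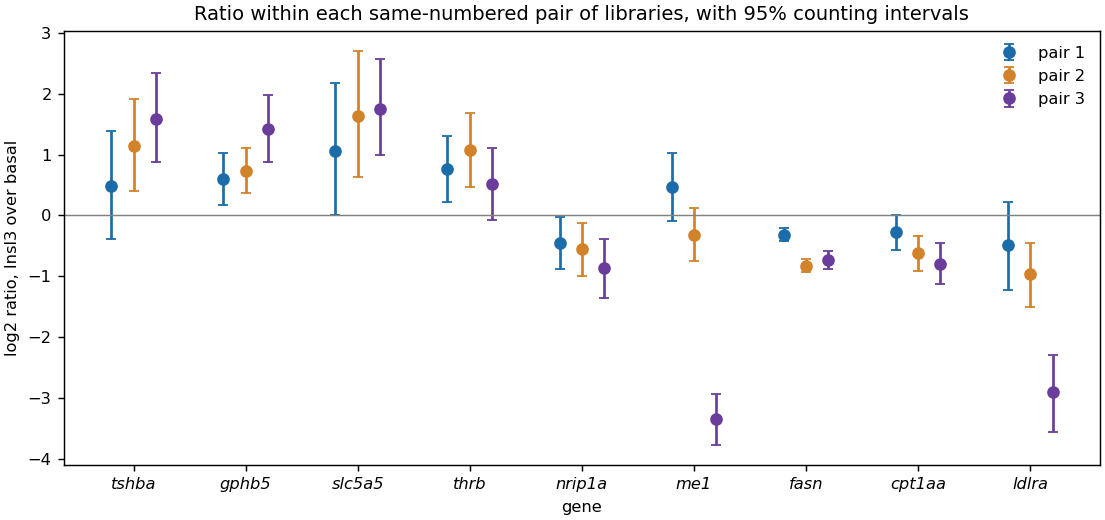
Log2 ratio of Insl3 over basal CPM (vertical axis) in pairs 1, 2 and 3 for the 9 thyroid-list genes with a matched transcript (horizontal axis). Bars are 95% exact counting intervals, and a grey line marks no difference. The ratios of tshba, gphb5, slc5a5 and thrb lie above the line in all 3 pairs, and those of me1 and ldlra in pair 3 (0.0986 and 0.134 on the linear scale) lie far below those in pairs 1 and 2.

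Read against all transcripts, 1 of the 3 genes (thrb) had conditions that did not overlap with Insl3 higher, beside 2.55% of the tested transcripts. Without both libraries numbered 3 the conditions did not overlap for all 3 genes, beside 14.2% of the tested transcripts. In the quasi-likelihood test of edgeR over all 36363 transcripts, 0.542% were higher with Insl3 and 0.938% lower before any adjustment (p under 0.05), and slc5a5 was the only one of the 3 genes among them. With the replicate number as a block, 7.4% were higher, including all 3 genes. Because the genes were listed for this contrast, nothing is read from these counts. After Benjamini-Hochberg adjustment 0 of the 36363 transcripts passed 0.05 in edgeR with or without the block, whereas 538 had an unadjusted p under 0.05 without it. In DESeq2 1 transcript passed after adjustment and 644 before it.

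**Figure D3:**
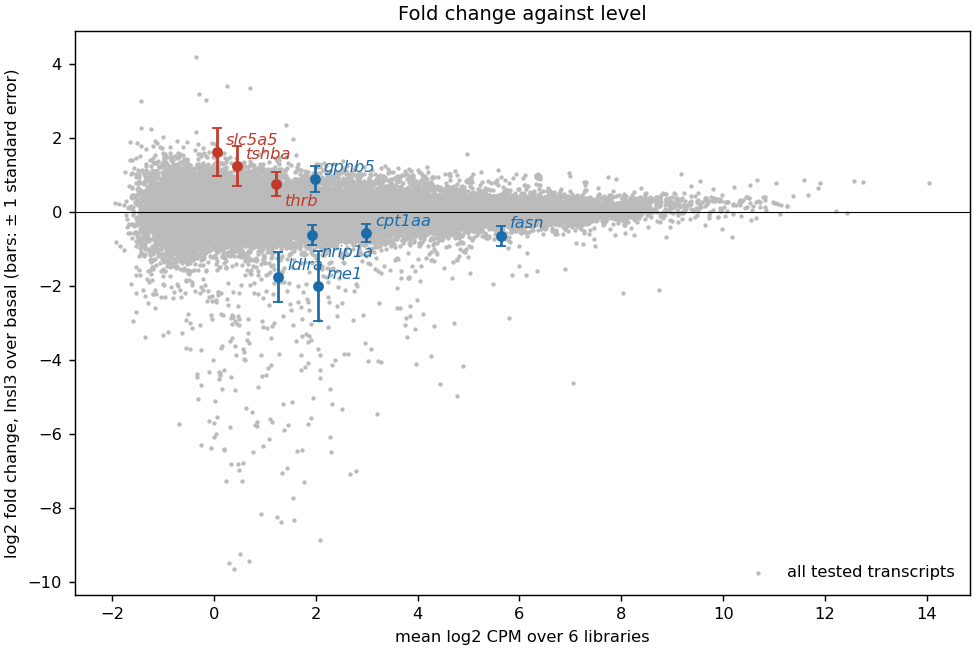
Log2 fold change of Insl3 over basal (vertical axis) against the mean log2 CPM over the 6 libraries (horizontal axis) for all tested transcripts (grey), the 3 genes chosen from the study's list (red) and the other thyroid-list genes (blue), with bars of 1 standard error. The 3 genes sit among low transcripts, at 1.62 for slc5a5, 1.23 for tshba and 0.76 for thrb, where the grey cloud is widest.

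The wider axis could be followed only in part. Of a list of 48 genes covering ligands, membrane receptors, hormone synthesis, transport and deiodination, nuclear receptors with their partners, and target genes, 9 had a transcript matched to a symbol. No transcript was matched to the other 39, among them the alpha subunit cga, the receptor tshr, thyroglobulin, the deiodinases and the alpha receptors, and these were not analysed here. All 9 come from the study's list of called transcripts, so their direction is no independent evidence. Of the 9, 4 were higher and 5 lower with Insl3. Their median log2 fold change was -0.58, the value of cpt1aa. The median of 0.01 over all tested transcripts is no like measure, because those were not chosen by this contrast. Before adjustment (p under 0.05 in edgeR), 4 of the 6 genes other than tshba, thrb and slc5a5 were called, gphb5 being higher and fasn, cpt1aa and ldlra lower, beside the 0.542% of all tested transcripts that were higher and the 0.938% that were lower. With the replicate block nrip1a, with lower levels, was added, beside 7.4% of all tested transcripts that were higher and 6.13% that were lower. All 6 were listed for this contrast, so nothing is read from these counts either. With adjustment over all transcripts 0 of the 6 were called in edgeR.

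Among the ligands gphb5 was found beside tshba. It encodes the beta subunit of thyrostimulin, which in mammals also activates the thyroid-stimulating hormone receptor. Its levels were 2.65, 3.99 and 2.08 CPM in basal replicates 1 to 3, and 4.01, 6.65 and 5.56 CPM in Insl3 replicates 1 to 3. The conditions did not overlap, with Insl3 higher, as was so for 2.55% of all tested transcripts, although basal replicate 2 and Insl3 replicate 1 nearly met. The log2 fold change of gphb5 was 0.89 (standard error 0.35). Its counting intervals excluded 1 in all 3 pairs, as did those of slc5a5, nrip1a and fasn. The share of all tested transcripts with such intervals was not determined, so nothing is read from this. The order of gphb5 across libraries differed from that of tshba, with replicate 2 the highest in both conditions. Log2 CPM of both genes correlated with r = 0.65 over the 6 libraries.

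On the receptor side nrip1a was found beside thrb. Its mammalian counterpart is a corepressor of several nuclear receptors. It went the other way, with 3.92, 4.72 and 5.28 CPM in basal replicates 1 to 3 and 2.87, 3.23 and 2.91 CPM in Insl3 replicates 1 to 3. The conditions of nrip1a did not overlap, with Insl3 lower, as was so for 2.66% of all tested transcripts, and its log2 fold change was -0.63 (standard error 0.27).

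The remaining 4 genes are targets of thyroid hormone in mammalian liver, and all 4 had lower mean levels with Insl3. Fatty acid synthase, fasn, had log2 fold changes between -0.76 and -0.37 with each library left out, the smallest without basal replicate 2, and -0.64 (standard error 0.27) with all of them. For cpt1aa, which admits long-chain fatty acids to mitochondria, the value was -0.58 (standard error 0.24). The conditions of fasn and cpt1aa did not overlap either, beside the same 2.66% of all tested transcripts. The malic enzyme gene me1 had 1.64, 4.26 and 27.9 CPM in basal replicates 1 to 3 and 2.26, 3.42 and 2.76 CPM in Insl3 replicates 1 to 3. Its log2 fold change of -2.0 (standard error 0.94) rested on basal replicate 3 and was -0.04 without it. The low-density lipoprotein receptor gene ldlra had 1.45, 4.05 and 9.34 CPM in basal replicates 1 to 3 and 1.03, 2.07 and 1.25 CPM in Insl3 replicates 1 to 3. Its log2 fold change of -1.76 (standard error 0.67) was -0.90 without basal replicate 3. The summed level of the 4 liver markers described below was 69.8, 108 and 497 CPM in basal replicates 1 to 3. Over these basal libraries it rose in the same order as me1 and ldlra, whereas fasn and cpt1aa were highest in basal replicate 2. With Insl3 the liver marker sum was 26.6, 59.7 and 10.6 CPM in replicates 1 to 3. There fasn (42.5, 47.5 and 31.4 CPM) and cpt1aa (6.23, 7.08 and 6.06 CPM) had the order of the sum. By contrast, me1 and ldlra were lowest in Insl3 replicate 1. Whether the liver markers and these 4 genes share a source was not tested.

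Markers of other tissues were set beside these genes. Symbols were known only for transcripts on the study's list, so a marker off that list could not be looked for. Absence from the list does not tell whether a marker was expressed. The pituitary is the usual source of tshba, and of 8 pituitary markers only tbx19 was on the list. It is a transcription factor of the corticotroph lineage. Levels of tbx19 were 7.13, 4.86 and 6.88 CPM in basal replicates 1 to 3 and 9.94, 9.25 and 10.6 CPM in Insl3 replicates 1 to 3. Its conditions did not overlap, with Insl3 higher, as was so for 2.55% of all tested transcripts. Because tbx19 was listed for this contrast, nothing is read from its separation. Of 6 thyroid follicle markers only slc5a5 itself was on the list. The 4 liver markers (tfa, hnf1ba, foxa1 and kng1) were all on the list. Their summed level ranged from 69.8 to 497 CPM under basal conditions and from 10.6 to 59.7 CPM with Insl3. Basal replicate 3 was the highest library for liver markers and Insl3 replicate 3 the lowest. The 2 blood cell markers were slc4a1a of red cells and mpx of neutrophils. Their sum was 1.91, 2.48 and 2.19 CPM in basal replicates 1 to 3. With Insl3 it was 3.56, 7.27 and 12.1 CPM in replicates 1 to 3. Insl3 replicate 3 was the highest library, as for tbx19 and all 3 thyroid genes. Among the basal libraries the blood cell sum was highest in replicate 2 and tbx19 in replicate 1, whereas the 3 thyroid genes were highest in replicate 3. All these transcripts come from the study's list as well. Their part in the levels of the 3 thyroid genes and of the other thyroid-list genes was not tested. None of the 12 markers of germ, Sertoli and Leydig cells had a matched transcript, so the testis label was not checked against them here.

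**Figure D4:**
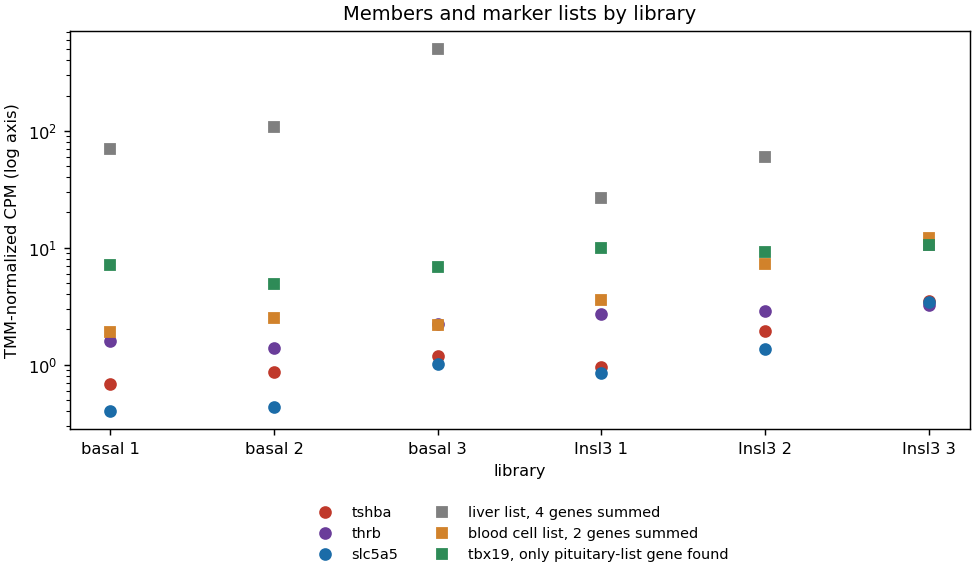
TMM-normalized CPM (vertical axis, log scale) in each of the 6 libraries (horizontal axis) for the 3 genes (circles) and for the marker lists (squares), with the 4 liver and 2 blood cell genes summed. The liver list runs from 497 CPM in basal replicate 3 to 10.6 CPM in Insl3 replicate 3. The blood cell list is highest, at 12.1 CPM, in Insl3 replicate 3, as are tbx19 and all 3 genes. Among the basal libraries the blood cell list is highest in replicate 2, tbx19 in replicate 1 and the 3 genes in replicate 3.

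Transcripts with the most similar profiles were sought among 384 tested transcripts with a gene symbol on the study's list, by Pearson's r of log2 CPM over the 6 libraries. For tshba these were pimr58 (r = 0.99), pimr15 (r = 0.98), both of the Pim-related kinase family whose near-identical members can share reads, and gpx1b (r = 0.98), a glutathione peroxidase gene. The pimr58 levels were 9.01, 12.4 and 15.1 CPM in basal replicates 1 to 3 and 12.1, 21.7 and 30.9 CPM in Insl3 replicates 1 to 3. For slc5a5 they were the clone-named gene cabz01084566.1 (r = 0.99), the transcription factor gene dmrt2a (r = 0.99) and bx537296.2 (r = 0.98). The dmrt2a levels were highest in Insl3 replicate 3, at 20.3 CPM, and in basal replicate 3 among the basal libraries, at 7.84 CPM. For thrb they were tcim (r = 0.99), st7 (r = 0.98) and the collagen gene col14a1b (r = 0.97). Levels of st7 lay between 11.3 and 14.2 CPM under basal conditions and between 18.2 and 18.9 CPM with Insl3, without overlap. Conditions did not overlap, with Insl3 higher, for 2.55% of all tested transcripts. All candidates were listed for this contrast and st7 was chosen for its likeness to thrb, so nothing is read from its separation. These values of r rest on 6 libraries. A value above 0.9 was reached by 2.32% of all other tested transcripts for tshba, 2.83% for slc5a5 and 0.723% for thrb.

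Direction did not depend on the setting for any of the 3 genes. All 48 values obtained under other scalings, filters, models and left-out libraries were positive, with ranges of 0.65 to 1.59 for tshba, 0.83 to 2.16 for slc5a5 and 0.62 to 0.98 for thrb on the log2 scale. Since the genes were chosen from transcripts called different between the conditions in these libraries, this is a statement on the processing and not on the condition.

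**Figure D5:**
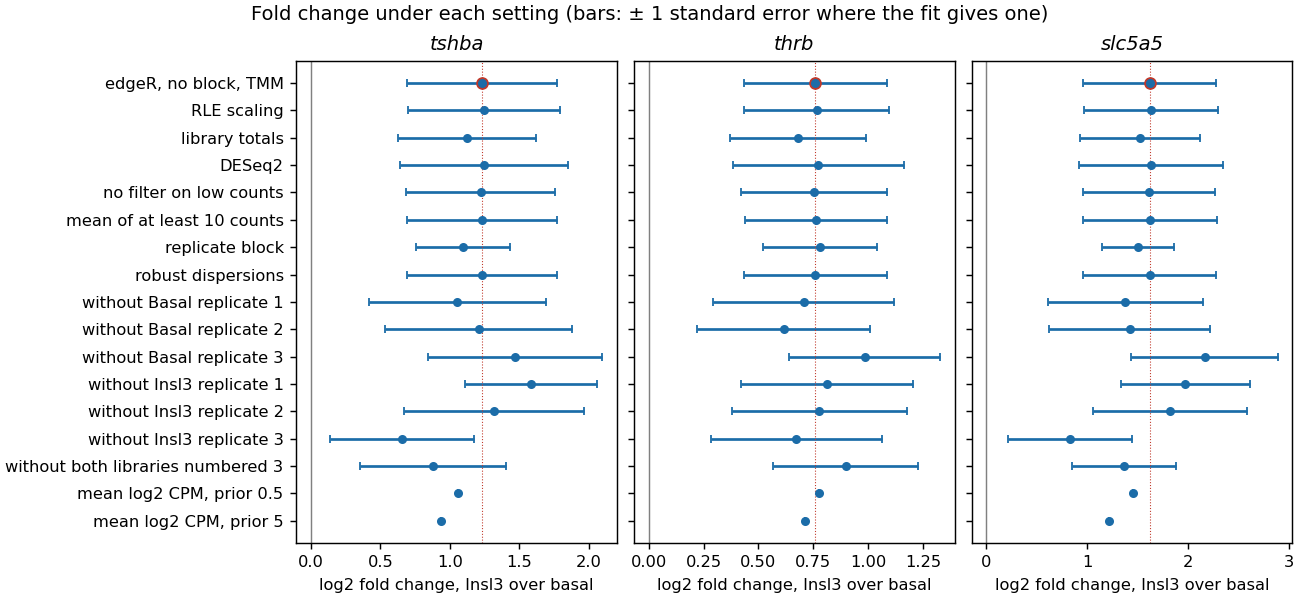
Log2 fold change of Insl3 over basal (horizontal axes, with their own scale in each panel) for tshba, thrb and slc5a5 under the fit used in the text (top, red) and each alternative, with bars of 1 standard error where the fit gives one. The lowest values of tshba (0.65) and slc5a5 (0.83) are those without Insl3 replicate 3, and thrb varies least, from 0.62 to 0.98.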

How the data were processed

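Per the labels and the study's methods, paired-end reads were aligned to GRCz10 with TopHat2 (2.0.12) and counted with HTSeq (0.6.1), and the counts the authors deposited are raw, 1 whole number for every Ensembl transcript and library. The annotation release, strand setting and counting mode are not given in the sources used here, so reads shared between isoforms or with overlapping genes may be missing from, or added to, a transcript's count. The deposited tables hold 46260 transcripts in each library and no rows of unassigned reads.

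Transcripts were matched to symbols through the ID and symbol columns of the study's list of 409 called transcripts, of which 408 carry the versioned ID of the counts. Other transcripts of the same genes could not be looked for. The reference tables at hand pair genes and not transcripts with symbols.

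Counts were analysed in R 4.3.3 with edgeR 4.0.16. Transcripts were filtered with filterByExpr (minimum count 10), scaled by TMM and tested with the quasi-likelihood test (two-sided) with condition as the only term, and p-values were adjusted by Benjamini-Hochberg over 36363 transcripts. Standard errors were the size of the log2 fold change over the root of F. Log2 CPM used a prior count of 2. Ratios within pairs carry exact conditional binomial intervals at the 95% level. Alternatives were DESeq2 1.42.0, RLE factors, library totals, no filter, a mean of at least 10 counts, the replicate block, robust dispersions, prior counts of 0.5 and 5, and each library left out.

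In the pair comparisons and the replicate block, replicate numbers were treated as pairing the libraries, from the data and not from the labels. The reported fit, with condition as the only term, did not use them. Deviations from the condition means correlated across transcripts with r = 0.727, 0.584 and 0.601 for same-numbered basal and Insl3 libraries, and with r between -0.512 and -0.19 for others. Deviations cancel out within a condition, so the negative values follow from the positive ones and are no separate evidence of pairing.

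Genes named were the 3 genes, every other gene of a 48-gene thyroid list with a matched transcript, marker lists, and for each of the 3 genes the 3 listed transcripts most alike. A further marker is not reported here. Genes and lists were chosen with earlier results of these data known.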

Additional observations from a re-analysis of the deposited data

How the results depend on the processing

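The log2 fold changes of tshba, thrb and slc5a5 kept a positive sign in 48 of 48 alternative values. Each stayed within the spread between replicates (1 SD of log2 CPM within conditions) of the reported value. That SD, 0.68 for tshba, 0.26 for thrb and 0.83 for slc5a5, includes the library left out, so it is a wide margin. Without Insl3 replicate 3 the value of tshba fell from 1.23 to 0.65 and that of slc5a5 from 1.62 to 0.83. With each library left out in turn they ranged from 0.65 to 1.59 for tshba, 0.62 to 0.98 for thrb and 0.83 to 2.16 for slc5a5. With the replicate block they were 1.09 (standard error 0.34), 0.78 (0.26) and 1.5 (0.36). The number of transcripts with an unadjusted p under 0.05 was less stable. It was 538 in the reported fit, 845 with no filter on low counts and 4920 with the replicate block. It ran from 170 without Insl3 replicate 3 to 1472 without basal replicate 3, with 885 without Insl3 replicate 1. Of the 538 called with TMM scaling 197 were higher, and of 538 called with library totals 114 were, where the median over all tested transcripts was -0.09 against 0.01. The fold change of me1 was -0.04 without basal replicate 3 and -0.05 without both libraries numbered 3, an alternative chosen after seeing the data. The cause of these differences was not tested. At 13 to 71 counts per library, counting error alone leaves single ratios of the 3 genes uncertain by a large factor.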
